A study of Rattus norvegicus with 20 samples.

Results

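Cultures of neonatal rat cardiomyocytes given histidine alone were compared with cultures given phosphate-buffered saline (PBS), the vehicle. The members are all genes of the deposited table in the 5 histidine libraries and the 5 PBS libraries, 10 of the 20 libraries in the series, chosen by their titles. The histidine cultures had 100 nM of the amino acid for 72 h, and the PBS cultures had none for the same 72 h. The remaining 10 libraries came from cultures with 1 µM doxorubicin, 5 of them with histidine as well and 5 without, and enter here only as values set beside the histidine comparison. The study is about plasma histidine and recurrent atrial fibrillation, and the cultures address the amino acid's action on heart cells in the presence or absence of this anthracycline. Neither the strain nor an age beyond neonatal is given. Whether the 5 libraries of a treatment are 5 cultures is not stated either, and every p-value below refers to the variation among libraries, which may be technical.

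Histidine is an essential amino acid that enters cells through amino acid transporters, is loaded on its tRNA by histidyl-tRNA synthetase, and is the precursor of histamine and of carnosine, a dipeptide buffer of muscle. Cells read amino acid supply through the transcription factor Atf4 and through mTOR signalling. Immediate-early genes, such as Egr1 and Fos, are switched on within minutes by growth factors, mechanical load and calcium, through serum response factor and CREB at their promoters. Interferon-stimulated genes encode antiviral proteins and are driven by IRF factors at interferon-stimulated response elements.

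Total counts per library were 53246205 to 71623955 with histidine and 63561787 to 78204997 with PBS, and 15093 of 15503 genes passed the filter on low counts. The cultures held RNA of several cell types: 16 fibroblast markers took 9.51% to 10.9% of counts with histidine and 10.8% to 11.3% with PBS, whereas 16 cardiomyocyte markers took 0.0878% to 0.101% with histidine and 0.0951% to 0.112% with PBS. The 14 macrophage and leukocyte markers took 0.326% to 0.395% of counts with histidine and 0.323% to 0.336% with PBS. Cardiac myosins, troponin T and the ryanodine receptor Ryr2 were present, so the label holds in part, but the libraries are those of mixed cultures. In such bulk samples, fewer cells of a type and less RNA per cell cannot be told apart. Replicate 3 of each group stood apart from the rest on the first principal component (15.6% of variance), at 45.2 with histidine and 26.7 with PBS, against -15.3 to 1.44 in the other 8 libraries. Values without both libraries numbered 3 are therefore given where they differ.

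No gene passed edgeR's quasi-likelihood test at an adjusted p under 0.05 (0 of 15093 genes, 0% called), and the smallest adjusted p was 0.359. At an unadjusted p under 0.05 there were 667 genes (4.42%), 347 higher (2.3%) and 320 lower (2.12%) with histidine, against 755 that a uniform spread of p-values would give. The 2 groups did not overlap for 127 genes (0.841%), 62 higher (0.411%) and 65 lower (0.431%). DESeq2 called 9 genes (0.0609% of those it tested), of which 7 carry a symbol: Nr4a1, Egr1, Ldah and Ndufb4 lower, and Clec2g, Btbd10 and Cars1 higher. In a single fit of all 4 groups over 20 libraries, edgeR again called 0 genes, with 312 at an unadjusted p under 0.05.

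The differences were small and their intervals narrow. The median absolute log2 fold change was 0.07, and 10% of genes lay beyond 0.29. For 11765 genes (78%) the 95% interval of the fold change lay within 1.5-fold in either direction, and for 13563 genes (89.9%) it lay within 2-fold. Precision followed the level: the interval lay within 1.5-fold for 95.3% of the 3773 genes with a mean over 50 CPM and for 2% of the 1649 genes under 1 CPM. CPM are read counts scaled to a common library size, with effective library sizes by the trimmed mean of M values (TMM).

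**Figure D1:**
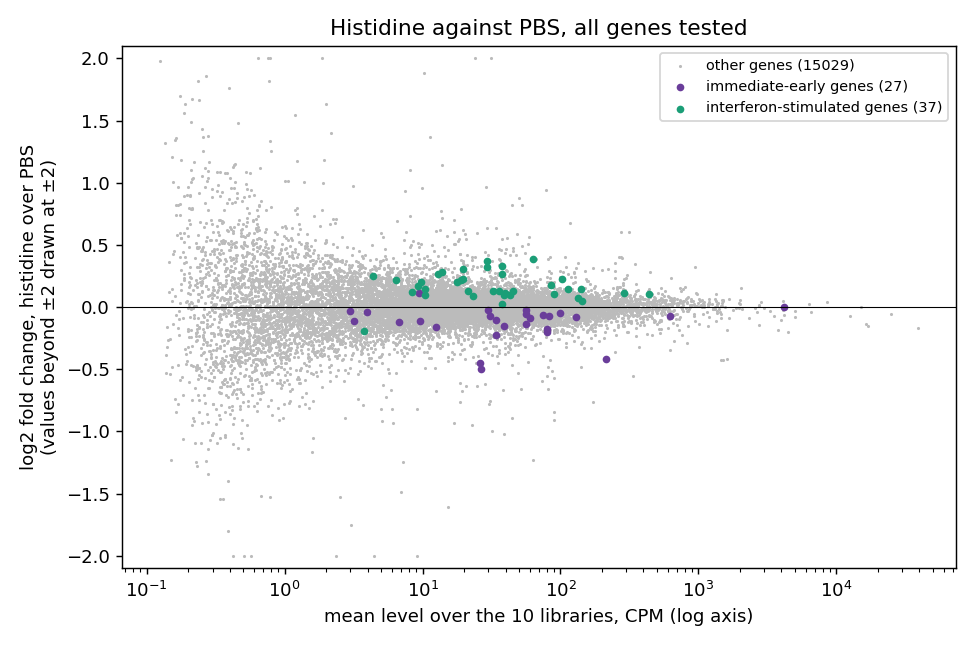
Log2 fold change of histidine over PBS against mean level in CPM (log axis) for all 15093 genes tested, each point a gene, with 27 immediate-early genes in purple and 37 interferon-stimulated genes in green. The purple points lie below 0 for 26 of 27 genes and the green points above 0 for 36 of 37.

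The immediate-early genes stood lower with histidine. Of 27 tested members, 26 had a lower mean, whereas 49.4% of all genes did, and the median log2 fold change was -0.09 against 0.00 over all genes (0.0016). None passed edgeR's test after adjustment. The number of members with a higher mean was 1 to 5 without single libraries, and 3 without both libraries numbered 3. The groups did not overlap for 4 members, Egr1, Nr4a1, Btg2 and Jun, all lower, where 0.431% of all genes were lower without overlap. An unadjusted p under 0.05 was found for 5 members, all lower, and for 2.12% of all genes in that direction. These genes were chosen with earlier results of the same data known, so the count is a description.

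Serum response factor binds the CArG box, and Egr1, whose promoter is shown because the gene had the clearest separation of groups among well known targets of this factor, holds it more than once. The window below is the 250 bases before the start of Egr1 from RefSeq (GRCr8, chr18:26736828-26737077, plus strand), with its 2 CArG boxes in capitals, the outermost bases at -105 and -74 from the start.

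Egr1: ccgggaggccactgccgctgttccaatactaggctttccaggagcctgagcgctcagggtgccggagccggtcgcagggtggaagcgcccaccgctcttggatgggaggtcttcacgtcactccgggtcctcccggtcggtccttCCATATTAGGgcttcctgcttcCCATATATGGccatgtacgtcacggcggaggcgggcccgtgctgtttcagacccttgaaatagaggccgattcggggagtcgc

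A CArG box on either strand was found in the same window of 5 of the 19 immediate-early members with a promoter entry (Egr1, Egr2, Klf6, Zfp36 and Srf), against 1.5% of 33469 promoters. The full CREB site TGACGTCA, which is its own reverse complement, was found in 5 of the 19 (Jund, Ier2, Dusp1, Btg2 and Maff), against 1.59%. A match is a description of the letters and not a site in use. Immediate-early genes are known targets of these factors, so the shares describe the choice of list and not the histidine comparison.

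Egr1 encodes a zinc finger transcription factor of the early growth response. It lies at chr18:26462981-26466766 on the plus strand in mRatBN7.2, the build of the deposited table. Its level was 181, 197, 164, 172 and 196 CPM in histidine libraries 1 to 5, against 238, 266, 221, 227 and 266 CPM in PBS libraries 1 to 5. Every histidine library lay below every PBS library, and in both groups replicates 2 and 5 were the highest and replicate 3 the lowest. With histidine the gene stood at 0.747 of the PBS level, -0.42 ± 0.07 (SE) on the log2 scale. The unadjusted p was 8.89e-05 and the adjusted p 0.375 in edgeR, and the adjusted p was 0.000195 in DESeq2.

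Nr4a1 encodes the orphan nuclear receptor Nur77 and lies at chr7:132374840-132389297, plus strand. It stood at 22.2, 24.2, 20.9, 22.7 and 19.7 CPM in the histidine libraries, against 29.96, 32.03, 27.4, 31.8 and 28.7 CPM in the PBS libraries. Again no histidine library reached the lowest PBS library. Its log2 fold change was -0.45 ± 0.07 (SE), with an adjusted p of 0.359 in edgeR, the smallest among the genes tested, and 0.000103 in DESeq2. Leaving out each library in turn kept the log2 fold change between -0.49 and -0.41.

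Btg2, an antiproliferative early gene, had 31.9, 32.9, 33.0, 30.8 and 29.8 CPM with histidine, against 38.1, 37.5, 36.3, 37.9 and 35.2 CPM with PBS. Jun, a subunit of the AP-1 transcription factor, had 78.3, 79.2, 69.8, 78.5 and 72.0 CPM with histidine, against 83.1, 89.6, 79.3, 86.1 and 89.7 CPM with PBS. The groups of both genes were apart, but Jun's only just, since histidine replicate 2 reached 79.16 CPM and PBS replicate 3 stood at 79.32 CPM. The log2 fold change was -0.22 ± 0.05 for Btg2 and -0.18 ± 0.05 for Jun (SE), neither past the test.

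Fos, the partner of Jun in AP-1, had 21.2, 28.2, 13.8, 23.4 and 22.98 CPM with histidine, against 29.8, 34.7, 27.2, 28.6 and 34.4 CPM with PBS, a log2 fold change of -0.50 ± 0.16 (SE). The groups overlapped through histidine replicate 2. The other members were closer to PBS. Fosl2, Klf2, Zfp36 and Atf3 had log2 fold changes of -0.20, -0.15, -0.14 and -0.16, and Ccn2, a target of YAP and TGF-beta signalling and the most abundant member at 4178 CPM with histidine and 4182 CPM with PBS, had one of 0.00 (-0.0013). Maff, a small Maf factor, was the 1 member with a higher mean, at 9.86 ± 1.43 CPM with histidine and 9.12 ± 1.21 CPM with PBS (SD, n = 5 each).

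**Figure D2:**
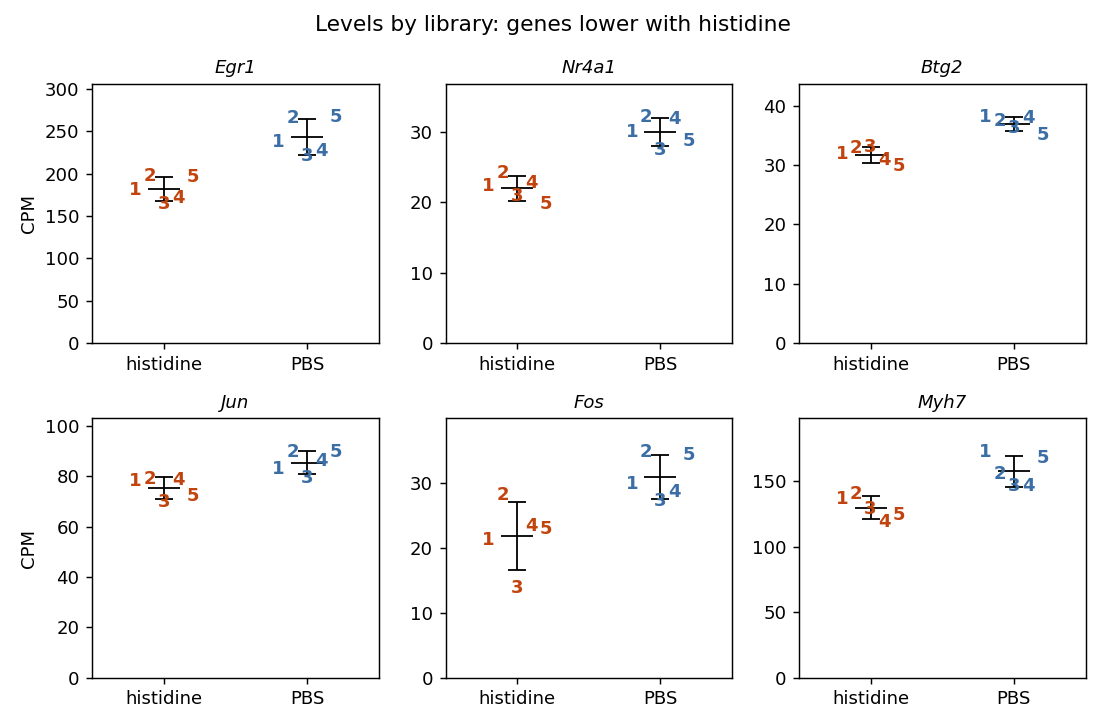
Levels in CPM of 5 immediate-early genes and of Myh7, with histidine on the left and PBS on the right; digits are the replicate numbers and bars the mean ± SD of 5 libraries. For Egr1, Nr4a1, Btg2, Jun and Myh7 no digit on the left reaches the lowest on the right, whereas Fos overlaps.

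The feedback genes of the kinase pathway upstream of many immediate-early genes did not share the direction. Of 12 members, including the Sprouty and Spred inhibitors and the Dusp phosphatases, 6 were higher and 6 lower, with a median log2 fold change of 0.00 (0.0024). Without single libraries 4 to 7 members were higher. The Sprouty gene Spry4 had 0.14 CPM in histidine replicate 1 and 26.3 to 35.6 CPM in the other histidine libraries.

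The interferon-stimulated genes stood higher with histidine. Of 37 members, 36 had a higher mean, against 50.6% of all genes, with a median log2 fold change of 0.15. In edgeR 0 passed after adjustment and 12 had an unadjusted p under 0.05, all higher, against 2.3% of all genes in that direction. Among the members only Ifitm3 had groups that did not overlap, against 0.411% of all genes higher without overlap. The 1 member with a lower mean was Oas3, an antiviral synthetase, at 3.54 ± 0.87 CPM with histidine and 4.04 ± 0.42 CPM with PBS (SD, n = 5 each).

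The windows below are the 250 bases before the starts of Ifitm3 (GRCr8, chr1:205541759-205542008, minus strand) and Irf7 (GRCr8, chr1:205800024-205800273, minus strand), from RefSeq and written 5′ to 3′ along the gene. They are shown for the 1 member whose groups were apart and for a driver of the list. Capitals mark a core of the interferon-stimulated response element, 2 blocks of GAAA with any 2 bases between them, which in Irf7 lies on the opposite strand and so reads in reverse complement.

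Ifitm3: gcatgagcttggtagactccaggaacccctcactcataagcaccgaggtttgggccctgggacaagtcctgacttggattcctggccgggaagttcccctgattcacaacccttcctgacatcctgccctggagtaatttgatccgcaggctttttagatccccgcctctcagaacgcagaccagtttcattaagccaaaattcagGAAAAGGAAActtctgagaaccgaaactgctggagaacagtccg
Irf7: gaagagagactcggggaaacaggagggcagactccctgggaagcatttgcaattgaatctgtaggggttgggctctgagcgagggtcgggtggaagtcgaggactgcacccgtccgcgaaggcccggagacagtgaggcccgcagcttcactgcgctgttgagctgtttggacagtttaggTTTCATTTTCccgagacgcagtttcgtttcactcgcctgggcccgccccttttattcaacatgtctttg

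The match, on either strand, was found in 20 of the 30 members with a promoter entry (66.7%), against 3.41% of all 33469 promoters and 1 of 19 immediate-early members. The member Oas3, which was lower, holds it too. Interferon-stimulated genes are known to be driven through this element, so the share describes the choice of list and not the histidine comparison.

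Ifitm3, a membrane protein that blocks viral entry, lies at chr1:196111043-196112203 on the minus strand in mRatBN7.2. It stood at 297, 309, 308, 295 and 304 CPM with histidine, against 282, 267, 273, 289 and 286 CPM with PBS. The groups did not overlap, but the log2 fold change was 0.12 ± 0.04 (SE), with an adjusted p of 0.97 (0.00828 unadjusted) in edgeR. Parp9, which works with Dtx3l in interferon signalling, had 60.4, 74.2, 75.0, 71.6 and 78.0 CPM with histidine, against 55.7, 43.4, 63.8, 63.8 and 48.4 CPM with PBS, a log2 fold change of 0.38 ± 0.11 (SE). Histidine replicate 1 lay within the range of PBS.

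Irf7, a factor that drives these genes, averaged 110 ± 16.6 CPM with histidine and 94.3 ± 4.88 CPM with PBS (SD, n = 5 each), short of the test. Isg15, the ubiquitin-like antiviral modifier, had 18.9, 24.1, 17.8, 22.3 and 25.2 CPM with histidine, against 15.5, 15.6, 17.2, 17.6 and 21.4 CPM with PBS, and Usp18, which removes it, averaged 41.4 ± 4.40 CPM with histidine and 34.3 ± 4.06 CPM with PBS. In both of these genes PBS replicate 5 was the highest of its group and overlapped the histidine libraries. Mx1 had a log2 fold change of 0.37 ± 0.18 (SE), and Ifit1, Ifit3 and Psmb8 were close to PBS at 0.12 ± 0.18, 0.10 ± 0.18 and 0.02 ± 0.06.

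Replicate 5 was the highest library of its group for the list. The median deviation of the members from the PBS mean, in log2 CPM, was 0.06, 0.17, 0.11, 0.17 and 0.36 in histidine libraries 1 to 5, and -0.08, -0.02, -0.05, 0.03 and 0.13 in PBS libraries 1 to 5. PBS replicate 5 lay above histidine replicates 1 and 3. Without histidine replicate 5 the median log2 fold change of the list was 0.12 and 35 of 37 members were higher. Without PBS replicate 5 it was 0.22, 1.5 times the value over all libraries.

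**Figure D3:**
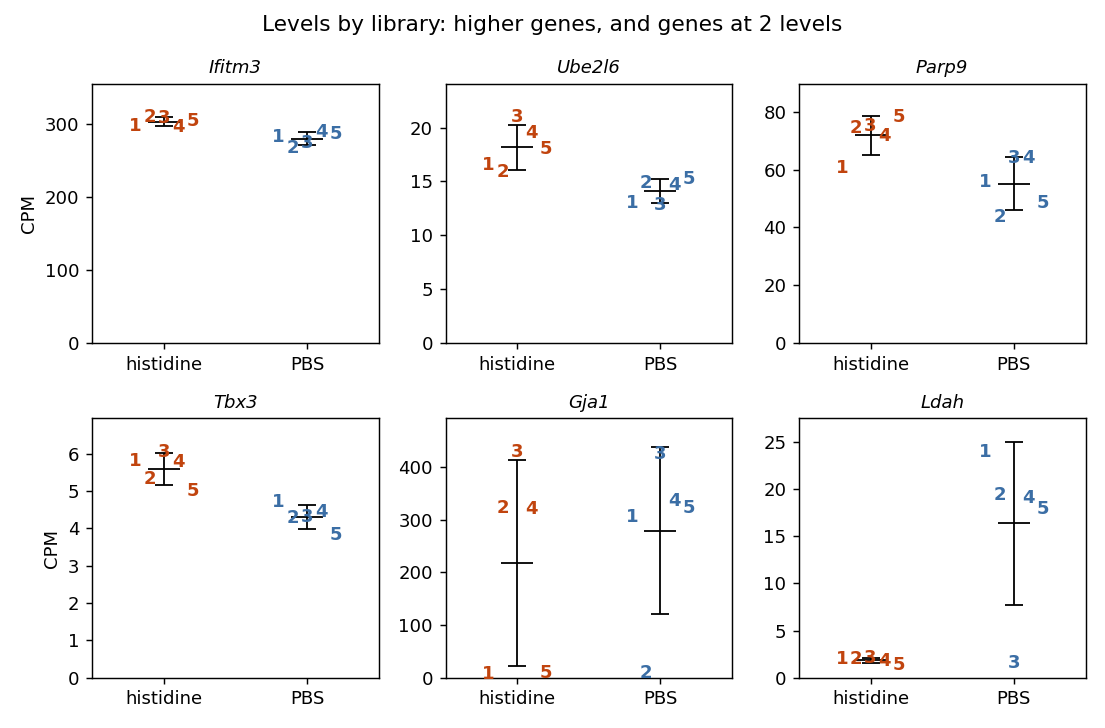
Levels in CPM of 3 interferon-related genes (Ifitm3, Ube2l6, Parp9), of Tbx3 and of 2 genes that sat at 2 separate levels (Gja1, Ldah), with histidine on the left and PBS on the right; digits are replicate numbers and bars the mean ± SD of 5 libraries. Gja1 is near 0 in histidine replicates 1 and 5 and PBS replicate 2, and Ldah in all 5 histidine libraries and PBS replicate 3.

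Some interferon-related genes outside the list were among the 10 higher genes with the smallest p-values. Only higher genes entered that selection, so these genes add no test of the list's direction. Ube2l6, the enzyme that loads Isg15 onto its targets, had 16.5, 15.9, 20.9, 19.5 and 17.97 CPM with histidine, against 13.01, 14.8, 12.8, 14.6 and 15.2 CPM with PBS, with no overlap and a log2 fold change of 0.37 ± 0.09 (SE). Rtp4, an interferon-induced chaperone of receptors, had one of 0.36 ± 0.10 (SE) with overlapping groups.

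The other genes among these 10 belonged to different processes. Clec2g, a C-type lectin of a multigene family whose near-identical copies may share reads, had 122, 164, 123, 185 and 123 CPM with histidine, against 98.8, 83.8, 97.2, 73.5 and 94.4 CPM with PBS. Its log2 fold change of 0.68 ± 0.13 (SE), 1.6-fold, had an adjusted p of 0.609 in edgeR and 0.000195 in DESeq2. Cars1, cysteinyl-tRNA synthetase, averaged 95.6 ± 13.6 CPM with histidine and 72.3 ± 4.47 CPM with PBS. Gsta1, a glutathione transferase of the NRF2 programme, averaged 86.9 ± 6.89 CPM with histidine and 73.6 ± 1.34 CPM with PBS, with no overlap. Utp23, Btbd10, Grpel2, Ankle2 and Glrx3 completed the 10, with log2 fold changes of 0.47, 0.63, 0.62, 0.28 and 0.16. All of them had an adjusted p of at least 0.9498 in edgeR.

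Cardiac contractile genes were mostly lower. Myh7, the slow myosin heavy chain of the fetal and failing rodent heart, had 136, 141, 129, 119 and 124 CPM with histidine, against 172, 156, 146, 147 and 168 CPM with PBS. The groups did not overlap, and the log2 fold change was -0.28 ± 0.06 (SE), with an adjusted p of 0.95 (0.000863 unadjusted) in edgeR. Myh6, the fast adult form, averaged 156 ± 14.9 CPM with histidine and 176 ± 15.1 CPM with PBS with overlapping groups, and the calcium release channel Ryr2 averaged 9.95 ± 1.82 CPM with histidine and 12.5 ± 2.45 CPM with PBS. Myh6 and Myh7 are neighbours of similar sequence on chromosome 15, so reads could be split between them.

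Of 33 sarcomere genes, 22 were lower and 11 higher, with a median log2 fold change of -0.09, which was -0.05 without histidine replicate 1 and -0.06 without PBS replicate 1. Troponin T (Tnnt2) had one of -0.09 ± 0.07, cardiac actin (Actc1) of -0.02 ± 0.07, troponin C (Tnnc1) of 0.00 ± 0.07 (0.0016) and the ventricular light chain Myl2 of 0.18 ± 0.13 (SE). Of 16 cardiomyocyte markers, 11 were lower and 5 higher, with a median of -0.10, which was -0.05 without PBS replicate 1. The natriuretic peptides, hormones of the stressed heart, did not move together: Nppa averaged 158 ± 20.6 CPM with histidine and 146 ± 7.8 CPM with PBS, and Nppb 28.3 ± 6.67 CPM with histidine and 28.6 ± 3.92 CPM with PBS. The interval of Nppb's fold change ran from -0.33 to 0.30 on the log2 scale.

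The study's title names atrial fibrillation, and 22 genes at loci tied to that arrhythmia were tested. With histidine 7 were higher and 15 lower, where 49.4% of all genes were lower, and the median log2 fold change was -0.09. At an unadjusted p under 0.05 in edgeR, 1 was higher and 3 were lower. Among the lower members, Synpo2l had a log2 fold change between -0.32 and -0.18 without single libraries. Tbx3 and Gja5, described next, were both higher, unlike most members. Tbx3, a transcription factor of the conduction system, had 5.80, 5.33, 6.04, 5.79 and 4.99 CPM with histidine, against 4.71, 4.28, 4.32, 4.44 and 3.82 CPM with PBS. It was the 1 member whose groups did not overlap, where 0.411% of all genes were higher without overlap. Its log2 fold change was 0.37 ± 0.09 (SE), at an adjusted p of 0.97 in edgeR. Gja5, the atrial connexin 40, had 47.9, 46.2, 79.4, 49.2 and 49.2 CPM with histidine, against 44.6, 43.1, 51.7, 49.97 and 42.6 CPM with PBS, and replicate 3 was the highest of both groups.

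Other lower genes among the 10 with the smallest p-values had groups apart as well. Ndufb4, a subunit of respiratory complex I, had 4.60, 4.35, 4.45, 5.08 and 2.74 CPM with histidine, against 9.58, 8.90, 12.7, 13.9 and 5.38 CPM with PBS, an adjusted p of 0.609 in edgeR and 0.000103 in DESeq2. Replicate 5 was the lowest of both groups. Chst3, which sulfates chondroitin, and Mipep, a mitochondrial peptidase, had log2 fold changes of -0.35 ± 0.08 and -0.26 ± 0.07 (SE).

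Collagen and matrix genes were lower in 29 of 36 members, against 49.4% of all genes, with a median log2 fold change of -0.06. Col1a1, the main chain of type I collagen, had 39670, 40600, 32150, 37610 and 32980 CPM with histidine, against 39540, 41080, 40150, 43080 and 42240 CPM with PBS. Histidine replicates 3, 4 and 5 lay below the PBS range and the other two within it. Col12a1, a collagen that decorates fibrils, averaged 703 ± 29.7 CPM with histidine and 819 ± 42.8 CPM with PBS with no overlap, a log2 fold change of -0.22 ± 0.05 (SE). The smooth muscle and pericyte markers were lower in 11 of 12 members, against 49.4% of all genes, with a median of -0.08. It was -0.02 without histidine replicate 3, when 5 of the 12 were higher. Without both libraries numbered 3 it was -0.06, with 2 of the 12 higher. Histidine replicate 3 stood at -0.43 on the log2 scale from the PBS mean for that list, against -0.09 to 0.04 in the other histidine libraries. PBS replicate 3, at -0.13, was the lowest PBS library.

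The genes that handle histidine itself did not share a direction, and none passed the test. Of 20 listed genes, 12 were tested, 7 higher and 5 lower, and the median log2 fold change was 0.07, which became -0.05 without histidine replicate 3, 0.03 without histidine replicate 2 or PBS replicate 1, 0.05 without PBS replicate 2, and 0.02 without both libraries numbered 3. Histidyl-tRNA synthetase (Hars1) had 72.5, 74.1, 68.6, 79.1 and 79.1 CPM with histidine, against 77.6, 76.8, 78.6, 78.1 and 72.5 CPM with PBS, and its interval ran from -0.15 to 0.07 on the log2 scale. Cndp2, a cytosolic dipeptidase, had 139, 138, 137, 141 and 127 CPM with histidine, against 129, 128, 131, 132 and 129.5 CPM with PBS, so that 4 histidine libraries lay above the PBS range and replicate 5 below it. The mitochondrial form of the synthetase, Hars2, averaged 74.3 ± 3.62 CPM with histidine and 69.1 ± 3.06 CPM with PBS. Hdc, which makes histamine, was close to the detection limit at 0 to 0.34 CPM with histidine and 0 to 0.74 CPM with PBS. Carnmt1, the carnosine methyltransferase, had the smallest p of the list and stood 0.20 ± 0.09 (SE) higher on the log2 scale, at an adjusted p of 0.97 in edgeR. Carns1, carnosine synthase, averaged 8.71 ± 0.77 CPM with histidine and 9.04 ± 1.51 CPM with PBS.

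Amino acid transporters were mostly lower by small amounts, and Atf4 targets and tRNA synthetases were split. Among 22 transporters 7 were higher and 15 lower, none at an unadjusted p under 0.05 in edgeR, with a median log2 fold change of -0.04, which lay between -0.05 and -0.02 without single libraries, and the large neutral transporter Slc7a5 had a log2 fold change of -0.03 ± 0.06 (SE). Among 21 Atf4 targets 9 were higher and 12 lower. Among 18 aminoacyl-tRNA synthetases 10 were higher and 8 lower. For 20 of the 21 Atf4 targets and 21 of the 22 transporters the 95% interval lay within 1.5-fold, against 78% of all genes. The share was 93.3% of genes with a mean of 5 to 50 CPM and 95.3% of those over 50 CPM, so the lists were not set apart by it.

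Ribosomal protein genes were higher in all 42 tested members, and nuclear genes of oxidative phosphorylation in 40 of 47, with median log2 fold changes of 0.05 and 0.06. Ndufb4, lower with histidine at -1.25, was not in the oxidative phosphorylation list, whose lowest log2 fold change was -1.02. Transcripts of both lists are short, with median lengths of 850.5 and 1311 bases as implied by the ratio of counts to FPKM. Over all genes, the log2 fold change went with length, with a median of 0.04 in the 3774 shortest and -0.03 in the 3773 longest genes. Of the shortest 63.35% were higher with histidine, and of the longest 34.19%. When each gene was centred on genes of similar length (10 bins), an alternative chosen after seeing the data, 27 of 42 ribosomal and 32 of 47 oxidative phosphorylation genes were higher, with medians of 0.01 (0.0084) and 0.03. The same centring left 26 of 27 immediate-early genes lower and 35 of 37 interferon-stimulated genes higher. Collagen and matrix genes are long, with a median length of 5058 bases. After centring 25 of these 36 genes were lower, with a median of -0.04. The tie between level and length was strongest in histidine replicate 4 (Spearman correlation across 11120 genes of -0.43) and PBS replicate 2 (0.32), and lay between -0.07 and 0.18 in the other 8 libraries. Without histidine replicate 4, 34 of 42 ribosomal genes were higher, with a median of 0.03. Processed copies of ribosomal protein genes are common in the genome, so their counts are uncertain.

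Inflammatory genes show how far 1 library can carry a list. Of 29 members 24 were higher with histidine, with a median log2 fold change of 0.12, but the median deviation from the PBS mean was 0.53 in histidine replicate 3 and -0.07 to -0.04 in the other 4 histidine libraries, and 0.20 in PBS replicate 3 and -0.12 to 0.01 in the other 4 PBS libraries. Glycolytic and hypoxia genes stood at 0.29 in both libraries numbered 3, and cholesterol synthesis genes at -0.29 in histidine replicate 3 and -0.27 in PBS replicate 3. The macrophage markers were at 0.20 in histidine replicate 3 and -0.06 to 0.00 (0.0016) in the other histidine libraries; their part in the inflammatory genes was not tested. Without histidine replicate 3, 9 of the 29 inflammatory genes were higher and the median log2 fold change was -0.06. Without PBS replicate 3 it was 0.18, and without both it was 0.03. Without both libraries numbered 3, the median log2 fold changes of the immediate-early and interferon-stimulated lists were -0.07 and 0.13.

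**Figure D4:**
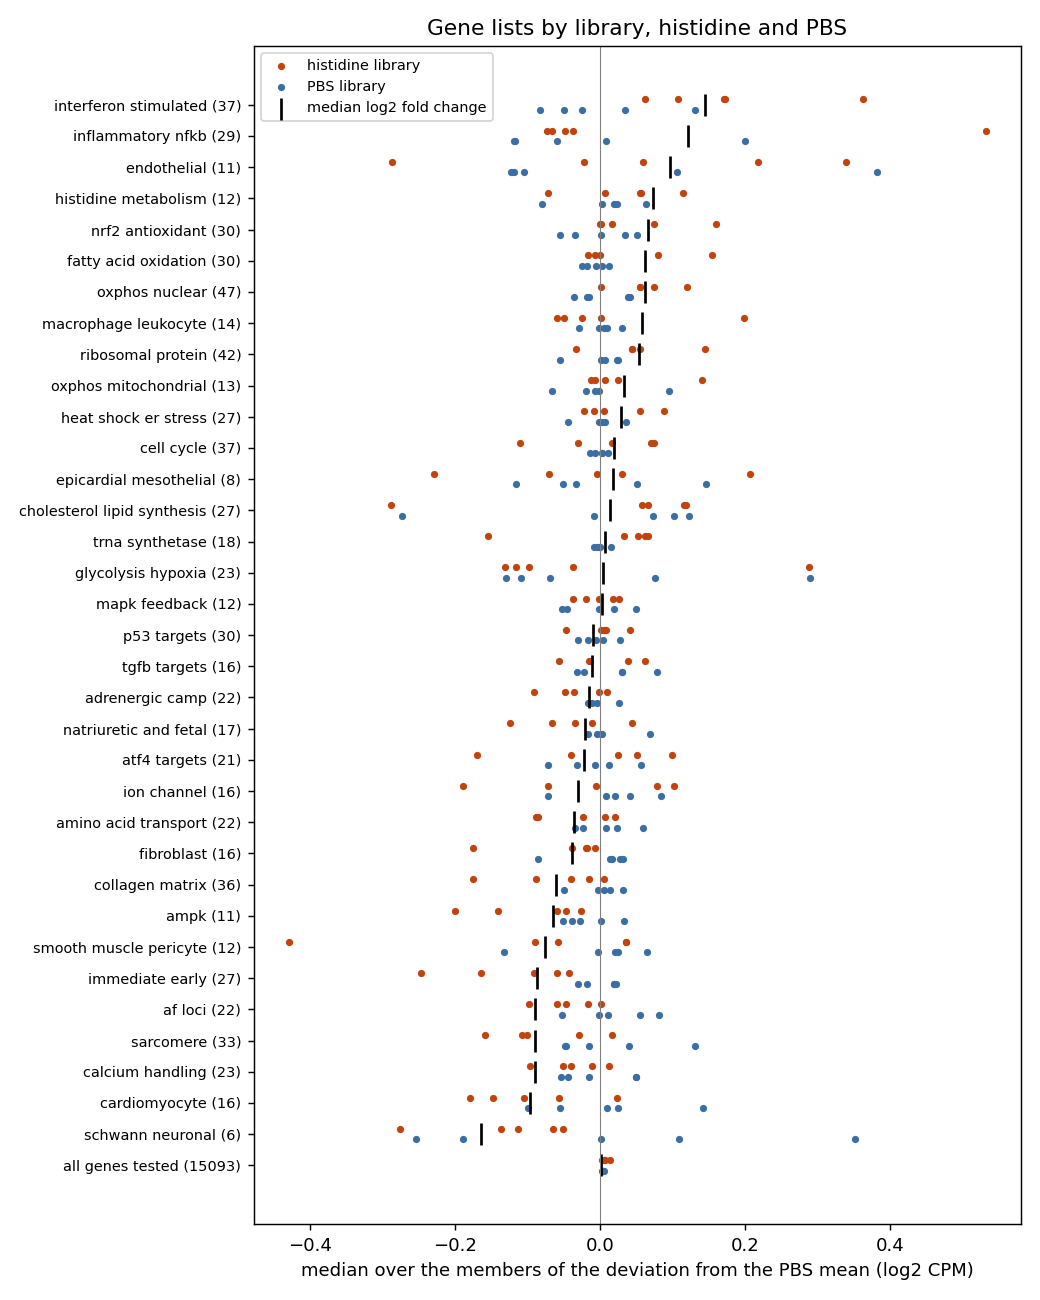
For each gene list (members tested in brackets) the median over members of the deviation from the PBS mean in log2 CPM, 1 point per library, histidine above PBS, with the median log2 fold change as a black bar. The bar need not lie at the mean of the points, since it is a median over fitted fold changes; for inflammatory genes the 2 libraries numbered 3 lie far to the right.

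Connexin 43 and a lipase gene showed a second way in which single libraries set a value. Gja1, the main gap junction protein of ventricular muscle, had 7.36, 322, 428, 320 and 9.39 CPM with histidine, against 305, 8.95, 424, 335 and 322 CPM with PBS. The 3 low libraries fell in both groups, and the log2 fold change of -0.36 ± 1.06 (SE) has an interval from -2.68 to 1.96. Ldah, a lipid droplet hydrolase, had 2.02, 2.00, 2.06, 1.75 and 1.39 CPM with histidine, against 23.9, 19.4, 1.53, 19.1 and 17.9 CPM with PBS. Its log2 fold change of -3.15 ± 0.54 (SE) was the largest among the genes DESeq2 called, and the low level occurred in 1 PBS library and in 1 doxorubicin library (1.42 CPM, with 22.5 to 25.6 CPM in the other 4). All 5 libraries with histidine and doxorubicin were at the high level, at 19.4 to 28.8 CPM. Without PBS replicate 3 the adjusted p of Ldah was 1.17e-06 in edgeR. Btbd10 had 33.0 to 38.1 CPM in the histidine libraries, against 33.96 CPM in PBS replicate 2 and 18.5 to 20.8 CPM in the other PBS libraries, and its adjusted p without PBS replicate 2 was 0.00191 in edgeR.

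Histidine was also given on top of doxorubicin, in libraries that share none with the comparison above. There edgeR called 0 of 15232 genes (0%) and DESeq2 called 0. At an unadjusted p under 0.05 there were 767 genes in edgeR and 940 in DESeq2. The interaction, which tests whether the difference with histidine depends on the drug, had 0 calls among 15449 genes (0%) in edgeR, with 1060 at an unadjusted p under 0.05, a smallest adjusted p of 0.167 and 14 calls by DESeq2. Across 14898 genes the log2 fold changes of the 2 comparisons had a Pearson's r of -0.11 and a Spearman correlation of -0.18, a description over genes that are not independent; without doxorubicin replicate 4 they were -0.04 and -0.03 over 14914 genes. Both went with gene length, in opposite directions (Spearman correlation -0.32 for histidine against PBS and 0.55 for both compounds against doxorubicin, 11120 genes), and the 0.55 was 0.16 without doxorubicin replicate 4.

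Values with the drug are set beside those without it. Egr1 had 293, 340, 281, 329 and 336 CPM with both compounds, against 335, 339, 239, 218 and 323 CPM with doxorubicin, a log2 fold change of 0.12 ± 0.14 (SE). Its interaction was 0.54 on the log2 scale, with an adjusted p of 0.631 (0.00274 unadjusted) in edgeR. Nr4a1 had a log2 fold change of -0.02 ± 0.16 and Jun of 0.08 ± 0.07 (SE). Of 27 immediate-early genes 10 were higher and 17 lower, against 48.3% of all genes higher and 51.7% lower, with a median of -0.07. Of 36 interferon-stimulated genes 21 were higher and 15 lower, with a median of 0.04. Ube2l6 had 13.5, 13.4, 17.3, 13.8 and 11.7 CPM with both compounds, against 16.2, 16.2, 18.3, 31.1 and 18.5 CPM with doxorubicin, the opposite direction to that without the drug, with an interaction p of 0.000556 before and 0.631 after adjustment in edgeR. All 42 ribosomal protein genes were lower with both compounds, with a median of -0.34, but this rests on doxorubicin replicate 4. The members' median deviation from the doxorubicin mean was 0.93 in that library, against -0.27 to -0.21 in the other 4 doxorubicin libraries and -0.40 to -0.22 in the 5 libraries with both compounds. Without it, a choice made after seeing the data, 15 of 42 ribosomal genes were higher and the median was -0.03. The log2 fold change was then -0.31 for Ube2l6, against -0.53 with all libraries, and 0.03 for Egr1. For Ube2l6 the interaction p was then 0.000147 before and 0.253 after adjustment in edgeR. The interferon-stimulated median was then 0.06 with 26 of 36 higher, and it lay between -0.04 and 0.08 without other single libraries. The immediate-early median lay between -0.10 and -0.03 without single libraries.

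**Figure D5:**
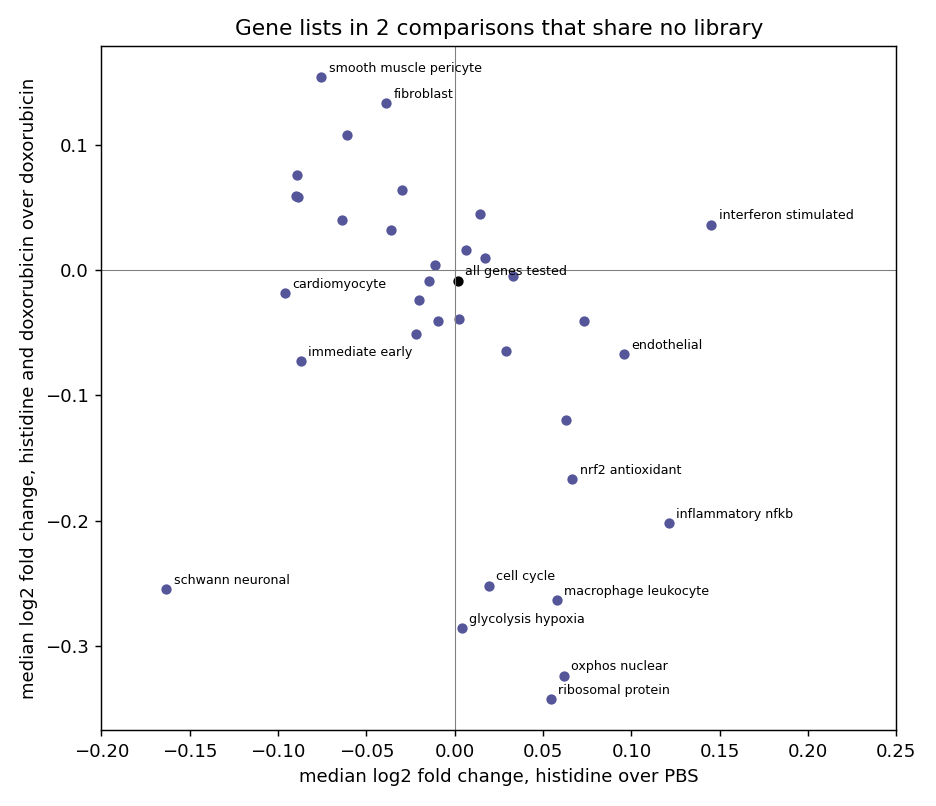
Median log2 fold change of 34 gene lists for histidine over PBS (horizontal) and for histidine and doxorubicin over doxorubicin (vertical), 1 point per list and all genes in black. Interferon-stimulated genes lie at 0.15 and 0.04, immediate-early genes at -0.09 and -0.07, and ribosomal protein genes at 0.05 and -0.34, the last of which is -0.03 without doxorubicin replicate 4.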

How the data were processed

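Polyadenylated RNA was captured on oligo(dT) beads and copied from random hexamers without strand marks, per the labels' protocols, so overlapping and antisense genes cannot be told apart. The authors deposited whole-number read counts per gene and FPKM values, per the file headers. Reads were trimmed with Trimmomatic and the build is mRatBN7.2, per the submitters' processing notes. Which aligner and counter were used is not given in the sources used here. Each of the 20 columns per unit was matched to a library by name, and 0 were left over. Library pairs within a group differed by a chi-square per degree of freedom of 34.9 to 117, so no column of counts was a copy of another. This value cannot tell whether 2 libraries came from the same culture.

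Counts were filtered with filterByExpr, scaled by TMM and tested with edgeR 4.0.16 (quasi-likelihood, 10 libraries, no block) in R 4.3.3, with Benjamini-Hochberg adjustment over all genes tested and a threshold of 0.05. The SE is the log2 fold change over the square root of F. DESeq2 1.42.0 and limma 3.58.1 on log2(FPKM + 0.1) and log2(FPKM + 1) were alternatives, the last on the deposited FPKM. Deviations of lists use log2 CPM with a prior count of 2. The procedure was tested on simulated data. FPKM served also to imply gene length. Symbols (10578 of 15503 genes) and promoters came from RefSeq tables of GRCr8, coordinates of genes from the deposited table.

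The named genes are the 10 smallest p-values per direction with a symbol and at least 5 CPM, genes called by DESeq2, the 2 or 4 members with the smallest p of each of 34 lists, and 13 markers. Other list members, Fos among them, and the genes with 2 levels were picked with their values in view. Members and lists were chosen with earlier results of these data known. Intervals cover the spread between libraries only. Some items are not reported here.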

Additional observations from a re-analysis of the deposited data

Results flagged for a closer look

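In 272 groups of 5 values (the named genes' CPM and the lists' summed CPM, in each treatment) 1 library stood apart from the other 4 in 22, where chance flags about 1 in 20 groups; histidine replicate 3 was that library 11 times. With histidine, replicate 3 stood at 22.5 CPM for Ccl4 (others 11.1 to 13.9), 79.4 CPM for Gja5 (others 46.2 to 49.2), 69.0 CPM for Hk2 (others 51.8 to 54.8) and 40.03 CPM for Nppb (others 24 to 27.1). The same library had summed levels of 4904 CPM for inflammatory genes (others 2538 to 2660), 12160 CPM for glycolytic and hypoxia genes (others 8800 to 9649), 6115 CPM for NRF2 targets (others 4470 to 4849), 3884 CPM for macrophage and leukocyte markers (others 3277 to 3341) and 187.8 CPM for epicardial markers (others up to 142.1). It was low at 1864 CPM for cholesterol and lipid synthesis (others 2406 to 2573) and 2986 CPM for aminoacyl-tRNA synthetases (others 3356 to 3471).

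Histidine replicate 4 stood at 71.9 CPM for Cdk1 (others 63.5 to 65.6) and 651 CPM for Col12a1 (others 709 to 723). Histidine replicate 5 stood at 126 CPM for Csf1r (others 132 to 134) and 1726 CPM for the adrenergic and cAMP list (others 1781 to 1789).

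With PBS, replicate 2 stood at 33.96 CPM for Btbd10 (others 18.5 to 20.8), 8.95 CPM for Gja1 (others 305 to 424) and 22120 CPM for ribosomal protein genes (others 23060 to 23440). Replicate 3 stood at 1.53 CPM for Ldah (others 17.9 to 23.9) and 6.06 CPM for Synpo2l (others 7.24 to 7.44). Replicate 4 stood at 19.6 CPM for Grpel2 (others 13.9 to 15.4), and replicate 1 at 35130 CPM for mitochondrially encoded genes (others 32060 to 32930).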

How the results depend on the processing

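The count of 0 genes past edgeR's test for histidine against PBS became 9 with DESeq2 and 1 with both libraries numbered 3 left out (Ldah). Leaving out each library in turn gave 0 to 2 calls (Btbd10 and a gene without a symbol without PBS replicate 2, Ldah without PBS replicate 3, Tmem248 without histidine replicate 3), and 517 to 932 genes at an unadjusted p under 0.05. With the replicate number as a block the count was 1 (Egr1, adjusted p 0.0463); same-numbered libraries deviated together for number 3 (correlation 0.21) and for no other (-0.03 to 0.02), so the numbers are not taken to pair the libraries; only number 3 correlated best with its own number. Other scalings, filters and limma on FPKM kept 0 calls. For both compounds against doxorubicin the count of 0 became 1 (Cyb5b) without doxorubicin replicates 3 and 4, chosen after seeing the data, and 0 to 1 without single libraries. It stayed 0 with the replicate block. For the interaction it became 14 with DESeq2 and 0 to 2 without single libraries, and 0 with the replicate block. Among named genes near 0, the sign of the log2 fold change turned for Nppb on library totals (0.0052), and for Ptprc (-0.044) and Hars1 (0.0011) without both libraries numbered 3. Without single libraries it ran from -0.1708 to 0.04497 for Nppb, -0.005655 to 0.1557 for Aldh1a2, -0.0181 to 0.04944 for Cdkn1a, -0.05684 to 0.01813 for Slc7a5 and -0.01595 to 0.1604 for Ptprc. The medians of the immediate-early, interferon-stimulated and ribosomal lists kept their sign in every alternative run, at -0.12 to -0.06, 0.11 to 0.22 and 0.03 to 0.08 without single libraries. Centring on gene length took the ribosomal median to 0.0084. With both compounds against doxorubicin, that list's -0.34 became -0.03 without doxorubicin replicate 4. Genes under 1 CPM limit the precision most.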

Other observations

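A set of genes sat at 2 separate levels across the 10 libraries, with a gap of at least 4-fold between adjacent ordered values and a maximum of at least 5 CPM. There were 141 such genes, 0.934% of those tested, and for 72 of them a single library lay on the other side of the gap. The low level fell only among histidine libraries for 41 genes, only among PBS libraries for 40, and in both groups for 60. Each library stood alone for 4 to 10 genes. At an unadjusted p under 0.05 in edgeR there were 7 of the 141 (4.96%), close to the 4.42% of all genes.

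The genes include well known ones, named after their values were seen. Cycs, cytochrome c of the respiratory chain, had 5.71, 51.7, 5.53, 5.64 and 60.6 CPM with histidine and 50.1 to 59.3 CPM with PBS. Spry4, an inhibitor of receptor kinase signalling, had 0.14 CPM in histidine replicate 1, with 26.3 to 35.6 CPM in the other histidine libraries and 26.3 to 39.3 CPM with PBS. Cav1, the coat protein of caveolae, had 301 to 421 CPM with histidine, and 12.1 CPM in PBS replicate 5 with 329 to 424 CPM in the other PBS libraries. Prss23, a secreted protease, had 277 CPM in histidine replicate 2, with 3.55 to 4.57 CPM in the other histidine libraries and 3.29 to 4.57 CPM with PBS.

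In 1 pair, picked with its values in view, the 2 levels were complementary. Further such pairs were not searched for. Slc39a7, a zinc transporter, and Hsd17b8, a steroid dehydrogenase, overlap on the plus strand of chromosome 20 (4822012 to 4826537 and 4822026 to 4828742 in mRatBN7.2). Slc39a7 had 143, 136, 116, 0.61 and 122 CPM with histidine and 128, 0.78, 138, 0.78 and 1.09 CPM with PBS. Hsd17b8 had 8.47, 9.24, 8.78, 152 and 9.80 CPM with histidine and 7.17, 136, 10.95, 141 and 148 CPM with PBS. Their sum was 125 to 153 CPM with histidine and 135 to 149 CPM with PBS. What sets the level of the 2-level genes, this pair included, was not tested.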
